A study of Mus musculus with 18 samples.

Results

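The genes described here encode the extracellular matrix and the enzymes that build and cut it, namely collagen chains, laminin chains, matrix metalloproteinases, ADAMTS proteases, tissue inhibitors of metalloproteinases and lysyl oxidases. They were chosen by gene symbol alone (Col, Lam, Mmp, Adamts, Timp and Lox names), which gave 106 of the 20295 genes in the count table. Of these, 61 passed the filter on low counts and entered the tests, among 12156 genes tested in all. The 45 members that did not pass held at most 108 counts over all 18 libraries, and 8 of them (Mmp1a, Mmp1b, Mmp7, Mmp8, Mmp10, Mmp12, Mmp20 and Mmp27) held no count at all. Statements on tested members therefore leave out the genes these cells barely expressed.

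Fat cells sit in a sheet of basement membrane made of collagen IV and laminins, which nidogen ties together, and a mesh of collagen VI lies around it. Fibrillar collagens I, III and V form the cables between cells, and lysyl oxidases cross-link them. Matrix metalloproteinases and ADAMTS proteases cut these proteins and the proteoglycans between them, TIMPs block the proteases, and the whole layer is rebuilt as fat cells fill or empty their lipid droplets.

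RNA-seq was made from BAT-LgT cells, a mouse brown preadipocyte line that carries SV40 large T antigen, after differentiation to brown adipocytes in culture, at day 7. They are 1 cell line, so the samples stand for cultures and not for animals. Cells received lipase inhibitors (against ATGL and HSL, the enzymes that release fatty acids from stored triglyceride) or no inhibitor for 1 h, and for the following 3 h DMSO (Vehicle), 100 nM ISO (isoproterenol, which stimulates β-adrenergic receptors) or SR-3420, a ligand of ABHD5 that switches on ATGL directly. This gave 6 groups of 3 samples, with the prefix Lipase Inh. marking those that had the inhibitors first. The labels give SR-3420 at 10 µM, whereas the text of the study gives another dose, and this was not settled here. The comparisons ask how the matrix genes respond to a β-adrenergic signal, to lipolysis alone, and to each when the lipases are blocked.

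Libraries held 4263755 to 21205032 counts. The lowest, Lipase Inh. + SR-3420 replicate 2, stood apart, with 18.3% of its counts on the single gene Lars2 against 0.0397% to 0.121% in the other 17. For the main fit, counts of calls that rest on this library are given with and without it. So are the genes called with SR-3420 under inhibitors. Single-gene SR-3420 interactions, and SR-3420 effects not called under inhibitors, are given with it only. Levels are CPM (counts per 1000000 counts of the library), with library sizes adjusted by edgeR's TMM factors, and a fold change is on the log2 scale with its SE from the edgeR fit over all 18 samples. A gene was called at an adjusted p of at most 0.05. Brown adipocyte markers were present in every library, their 10 genes summing to 7289 to 12936 CPM. In Vehicle, Adipoq gave 3248 to 4026 CPM of that sum, whereas Ucp1 lay at 2.34 to 3.17 CPM and Elovl3 at 3.35 to 4.87 CPM. A list of 10 preadipocyte or fibroblast markers summed to 645 to 866 CPM and 4 proliferation markers to 432 to 820 CPM. The 5 endothelial markers reached at most 0.661 CPM in sum and the 5 macrophage or blood markers at most 6.30 CPM, with Ptprc at 0 in every library. In bulk RNA, fewer cells of a type and less RNA per cell cannot be told apart.

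Collagen VI dominated the matrix transcripts. Per kilobase of counted length, a scale on which genes can be compared, Col6a1 had a mean level of 380.0 CPM in Vehicle, followed by Col6a2 with 173, the metalloproteinase Mmp11 with 113, Col4a1 with 76.1, Lox with 68.3, Col6a3 with 60.4 and Timp3 with 52. The fibrillar chains lay well below, Col1a1 at 14.4 and Col3a1 at 18.4 CPM per kilobase. Summed over all 106 genes, matrix transcripts took 6014 to 6401 CPM in Vehicle, 8241 to 9429 CPM in ISO and 8763 to 9341 CPM in SR-3420. With lipase inhibitors the sums were 6315 to 6404 CPM in Lipase Inh. + Vehicle, 6667 to 6971 CPM in Lipase Inh. + ISO and 6820 to 7068 CPM in Lipase Inh. + SR-3420. On this TMM-adjusted scale neither stimulated group overlapped Vehicle. Both stimulated ranges with inhibitors lay between those of Vehicle and of the stimulated cells without them. As a share of raw counts, matrix genes took 0.673% to 0.698% in Vehicle, 0.743% to 0.834% in ISO and 0.867% to 0.925% in SR-3420. After inhibitors it was 0.690% to 0.696% with Vehicle but 0.620% to 0.651% with ISO, below both controls. With SR-3420 after inhibitors it was 0.622% in replicate 2, and 0.724% and 0.742% in the others. Leaving replicate 2 out, the CPM sums of that group were 6820 and 6897. The 3 collagen VI chains made up 42.8% to 44.4% of the sum in Vehicle, 44.8% to 48.0% in ISO and 29.3% to 31.0% in Lipase Inh. + ISO.

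**Figure D1:**
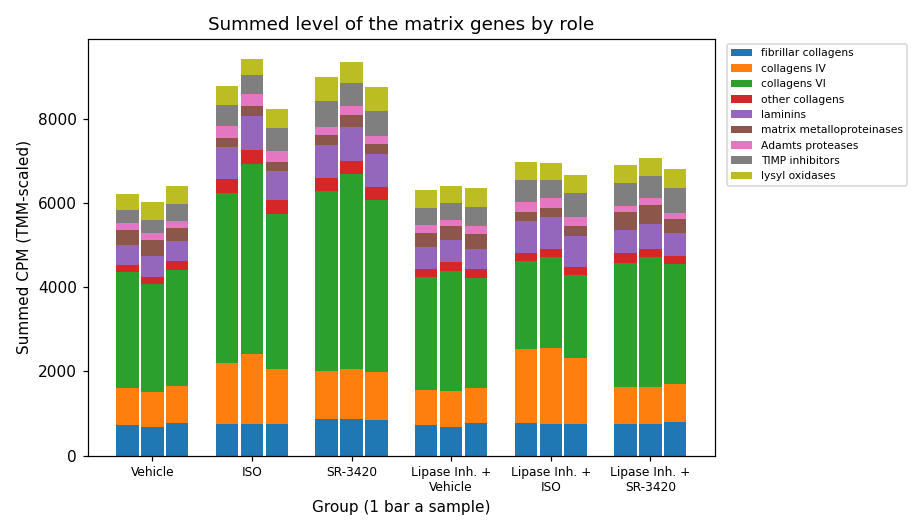
Summed level of the 106 matrix genes (vertical axis, TMM-scaled CPM) in each of the 18 samples, 1 stacked bar a sample, with colours for the gene roles and samples ordered by group. The sums were highest in ISO (8241 to 9429 CPM) and SR-3420 (8763 to 9341 CPM), and in Lipase Inh. + ISO the collagen VI layer was the thinnest.

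With ISO, 18 of the 61 tested members were higher than Vehicle (29.5%, against 26.8% of all 12156 genes) and 9 were lower (14.8%, against 25% of all genes). Their median log2 fold change was 0.10, beside -0.02 over all genes. With SR-3420, 24 members were higher (39.3%, against 26%) and 6 lower (9.84%, against 25.4%), with a median of 0.30 beside -0.02. ISO and SR-3420 were each compared with the same 3 Vehicle samples, so these counts are not independent of one another. Scaling libraries by total counts alone moved the median of all genes by -0.31 for ISO and by -0.16 for SR-3420. The ISO split then turned to 10 higher and 20 lower (33.3% of calls higher instead of 66.7%), while SR-3420 then gave 21 higher and 7 lower. Over all 12156 genes that scaling gave 1496 higher and 6004 lower with ISO, and 1947 higher and 4369 lower with SR-3420. The brown adipocyte markers, at 8536 to 9513 CPM in sum in Vehicle, were at 11180 to 12936 CPM in ISO and 8942 to 9587 CPM in SR-3420. The sum hides opposite changes. With ISO 6 of the 10 were higher and 0 lower, against 26.8% and 25% of all genes. With SR-3420 6 were higher and 2 lower (Adipoq by -0.52 and Pparg by -0.83), against 26% and 25.4%. The part of these markers in the matrix results was not tested.

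Lipase inhibitors on their own called none of the 61 members in edgeR, beside 0.485% of all genes higher and 0.428% lower. At an unadjusted p under 0.05 there were 5, all higher, namely Timp3, Lamc1, Mmp28, Col8a1 and Col5a1, with log2 fold changes of 0.16 to 0.38. The share of all genes at that unadjusted p was not counted. DESeq2 called 3 of these 5, Timp3 (0.35, DESeq2 adjusted p = 0.0242), Lamc1 (0.22, 0.0166) and Mmp28 (0.38, 0.0413). Over all genes DESeq2 called 117 higher and 90 lower.

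With TMM scaling, the balance of the calls with ISO after the inhibitors was the opposite of that with ISO alone. Against Lipase Inh. + Vehicle, 14 members were higher (23.0%, against 29.4% of all genes) and 25 lower (41.0%, against 28.3%), with a median of -0.15 beside -0.01. Total-count scaling, which moved the median of all genes by -0.23 here, gave 13 higher and 33 lower. With that scaling ISO alone gave 10 higher and 20 lower, so lower calls were then the more frequent in both comparisons. The same held over all genes, with 1973 higher and 5119 lower after inhibitors, and 1496 higher and 6004 lower with ISO alone. The difference between the ISO effects with and without inhibitors, tested as an interaction, was called for 24 members, 7 with a higher effect under inhibitors (11.5%, against 14.9%) and 17 with a lower one (27.9%, against 16.6%). SR-3420 after inhibitors left 3 members higher (4.92%, against 2.99%) and 1 lower (1.64%, against 1.36%), and without Lipase Inh. + SR-3420 replicate 2 these counts were 2 and 0. Total-count scaling gave 2 and 2 (50% of calls higher instead of 75%), and over all genes 114 higher and 230 lower. The SR-3420 interaction was called for 22 members, 2 higher (3.28%, against 12.5%) and 20 lower (32.8%, against 14.8%). Without that library 2 and 18 were called.

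**Figure D2:**
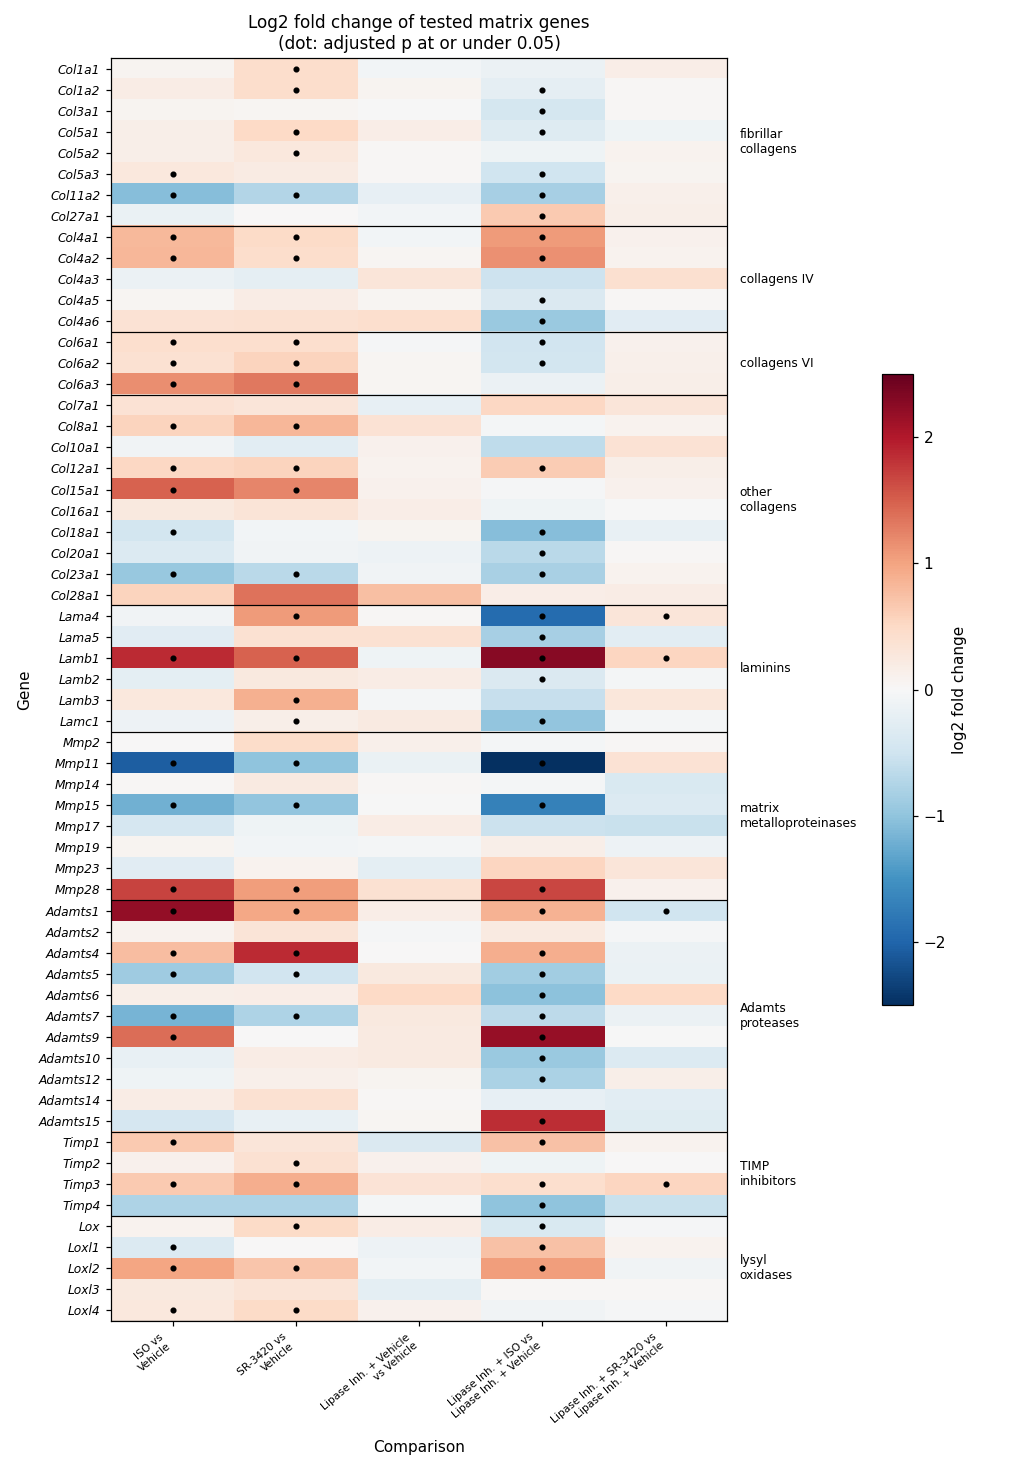
Log2 fold change (colour, blue lower and red higher, scale from -2.5 to 2.5) of 60 of the 61 tested matrix genes (rows, grouped by role) in 5 comparisons (columns), with a dot where the edgeR adjusted p was at most 0.05. The third column, inhibitors alone, holds no dot, and the fifth, SR-3420 under inhibitors, holds 4, on Lama4, Lamb1, Timp3 and Adamts1, of which Lama4 and Adamts1 were not called without Lipase Inh. + SR-3420 replicate 2.

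Among the collagen VI chains, which form the beaded filaments around fat cells, all 3 tested members rose with ISO and with SR-3420, against 26.8% and 26% of all genes. Col6a3 (mm9 chr1:92663435-92740548, minus strand) measured 502, 561 and 573 CPM in Vehicle, 1231, 1434 and 1001 CPM in ISO, and 1329, 1489 and 1254 CPM in SR-3420. Its ISO samples and its SR-3420 samples all lay above every Vehicle sample, a 2.24-fold rise with ISO (log2 1.17 ± 0.09 SE, edgeR adjusted p = 8.9e-10) and a 2.49-fold rise with SR-3420 (1.32 ± 0.09, edgeR adjusted p = 2.29e-10). After inhibitors the gene measured 560.0, 568 and 570 CPM with Vehicle, 517, 505 and 514 CPM with ISO and 640.0, 626 and 603 CPM with SR-3420. The ISO and SR-3420 effects were smaller under inhibitors by 1.31 ± 0.13 and 1.18 ± 0.13 log2 units (edgeR adjusted p = 8.97e-08 and 1e-06). Under inhibitors the ISO effect on Col6a3 was -0.15, with a 95% interval of -0.33 to 0.04, although with total-count scaling it was -0.37 (edgeR adjusted p = 0.00334).

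The other 2 chains moved less and turned over. Col6a1 and Col6a2 lie 85387 bases apart on chromosome 10, on the same strand. Col6a1 measured 1596, 1389 and 1548 CPM in Vehicle, 1955, 2202 and 1885 CPM in ISO, 1471, 1566 and 1424 CPM in Lipase Inh. + Vehicle, and 1074, 1121 and 1005 CPM in Lipase Inh. + ISO. ISO samples were all above Vehicle without inhibitors and all below it with them. The ISO effect was 0.41 ± 0.08 without and -0.48 ± 0.08 with inhibitors (edgeR adjusted p = 8.87e-05 and 1.3e-05), and the interaction was -0.89 ± 0.11 (edgeR adjusted p = 1.21e-06). Col6a2 followed with 0.39 ± 0.07 and -0.46 ± 0.08, and an interaction of -0.85 ± 0.11 (edgeR adjusted p = 2.12e-06). With total-count scaling the ISO rise of both genes was no longer called (0.11, edgeR adjusted p = 0.287, for Col6a1 and 0.08, 0.42, for Col6a2), while the fall under inhibitors was -0.70 and -0.69. SR-3420 raised Col6a1 by 0.43 ± 0.08 and Col6a2 by 0.55 ± 0.07, and ISO and SR-3420 differed by -0.01 for Col6a1 (95% interval -0.16 to 0.14). The study's methods kept 1 read per position and read length. Col6a1 reached 9.28 counts per base of its counted length, the highest of the members, and the part of that limit in its fold changes was not tested.

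Col15a1, a basement membrane collagen of the multiplexin group, followed Col6a3. It measured 74.3, 65.5 and 87.5 CPM in Vehicle, 206, 209 and 214 CPM in ISO, 174, 177 and 177 CPM in SR-3420, and 76.2 to 86.4 CPM in Lipase Inh. + ISO. The ISO samples stood apart from those of all other groups. ISO raised it 2.77-fold (1.47 ± 0.09, edgeR adjusted p = 8.38e-12) and SR-3420 2.32-fold (1.22 ± 0.09), whereas after inhibitors the effects were -0.03 (95% interval -0.20 to 0.14) and 0.11 (-0.07 to 0.28). Col8a1, a short-chain collagen of vessel and cornea matrix, rose by 0.56 ± 0.10 and 0.83 ± 0.10, and its interactions were -0.60 ± 0.14 and -0.73 ± 0.15 (edgeR adjusted p = 0.00288 and 0.000703). Col12a1, which decorates fibrils, differed in that it rose with ISO both without (0.52 ± 0.09) and with inhibitors (0.63 ± 0.09), and with SR-3420 (0.55 ± 0.09).

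Other non-fibrillar collagens fell. Col18a1, the source of endostatin, was lower with ISO by -0.46 ± 0.09 and under inhibitors by -1.07 ± 0.10 (edgeR adjusted p = 3.53e-09), and the difference was called (-0.62 ± 0.13, edgeR adjusted p = 0.00121). Col23a1, a transmembrane collagen at 1.58 to 2.82 CPM in Vehicle, fell by -0.94 ± 0.30 with ISO, and Col20a1 fell by -0.67 ± 0.20 with ISO under inhibitors. At these depths Col23a1 rests on few counts.

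The collagen IV chains Col4a1 and Col4a2, which assemble into the network of basement membranes, lie head to head on chromosome 8 with 2 bases between their spans in the table (Col4a1 chr8:11198423-11312826, minus strand, and Col4a2 chr8:11312829-11449287, plus strand). They moved together. Col4a1 measured 515, 469 and 525 CPM in Vehicle, 856, 1031 and 772 CPM in ISO, 686, 724 and 694 CPM in SR-3420, and 1014, 1054 and 910.4 CPM in Lipase Inh. + ISO. Every ISO sample, with or without inhibitors, was above every sample that received Vehicle. ISO raised Col4a1 by 0.82 ± 0.08 and Col4a2 by 0.84 ± 0.07, and under inhibitors by 1.06 ± 0.08 and 1.14 ± 0.07 (edgeR adjusted p = 4.26e-10 and 1.82e-11). SR-3420 raised them by 0.48 ± 0.08 and 0.43 ± 0.07, less than ISO by 0.34 ± 0.08 and 0.41 ± 0.07 (edgeR adjusted p = 0.00348 and 0.000233; for Col4a1 the difference was 0.19, adjusted p = 0.149, with total-count scaling). Under inhibitors the SR-3420 effects were 0.10 ± 0.08 and 0.09 ± 0.07, neither called. The minor chains did not share the rise. Col4a5 and Col4a6 were not called with ISO (0.05 ± 0.08 and 0.36 ± 0.31) and fell under inhibitors by -0.35 ± 0.08 and -0.92 ± 0.32, and Col4a3, at 0.62 to 1.33 CPM in Vehicle, was called in no comparison.

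Of the 8 tested fibrillar collagens, 1 rose and 1 fell with ISO, against 26.8% and 25% of all genes. Col5a3 was the 1 that rose (0.27 ± 0.11, edgeR adjusted p = 0.0493, at the threshold) and Col11a2 the 1 that fell (-1.07 ± 0.18, edgeR adjusted p = 5.11e-05). SR-3420 raised 4 and lowered 1, Col11a2 (-0.73 ± 0.17, edgeR adjusted p = 0.00141), against 26% and 25.4% of all genes. Col1a1, a chain of the main fibrillar collagen, measured 67.6, 56.9 and 78.3 CPM in Vehicle, 76.1, 59.2 and 75.8 CPM in ISO and 92.9, 90.1 and 90.2 CPM in SR-3420. All SR-3420 samples were above both other groups, and the rise was 0.43 ± 0.10 (edgeR adjusted p = 0.00114). Its partner Col1a2 rose by 0.44 ± 0.08, Col5a1 by 0.50 ± 0.08 and Col5a2 by 0.26 ± 0.09. Col5a1 was lower with ISO than with SR-3420 by -0.35 ± 0.08 (edgeR adjusted p = 0.00148). The same differences for Col1a1 and Col1a2 were -0.37 ± 0.10 and -0.26 ± 0.08 (edgeR adjusted p = 0.00795 and 0.0227). Without ISO replicate 2 these last values were -0.26 (edgeR adjusted p = 0.058) and -0.26 (0.0579), and the Col1a2 difference was also lost without ISO replicate 1 (-0.25, 0.0712), SR-3420 replicate 1 (-0.26, 0.0592) or SR-3420 replicate 3 (-0.26, 0.0535). Of the 10 preadipocyte or fibroblast markers, 4 (Pdgfrb, Dlk1, Vim and Tagln) were higher with SR-3420 and none lower, against 26% and 25.4% of all genes. Their sum was 842 to 866 CPM against 693 to 744 CPM in Vehicle. With ISO 2 of the 10 (Pdgfra and Thy1) were higher and none lower, against 26.8% and 25%, and the sum was 675 to 817 CPM. The part of these markers in the collagen I and V rise was not tested.

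ISO after inhibitors lowered more of the fibrillar chains. Of the 8, 5 fell and 1 rose, against 28.3% and 29.4% of all genes. Those that fell included Col5a1 (-0.33 ± 0.08), Col5a3 (-0.49 ± 0.11) and Col11a2 (-0.82 ± 0.18). Only Col5a3 had been called higher with ISO alone, and Col11a2 had fallen there too. The interactions of Col5a1 and Col5a3 were -0.48 ± 0.11 and -0.76 ± 0.16 (edgeR adjusted p = 0.00174 and 0.000803). Col3a1 fell by -0.45 ± 0.15 (edgeR adjusted p = 0.0172), a call that was lost without Lipase Inh. + ISO replicate 2 (-0.36, edgeR adjusted p = 0.0828) and without Lipase Inh. + Vehicle replicate 1 (-0.40, 0.0592) or 3 (-0.35, 0.0866). Col27a1, a fibrillar collagen of cartilage, was the 1 that rose. It measured 193, 198 and 206 CPM in Lipase Inh. + Vehicle and 317, 344 and 281 CPM in Lipase Inh. + ISO, a rise of 0.66 ± 0.10 (edgeR adjusted p = 6.09e-06), whereas ISO without inhibitors gave -0.17 ± 0.10, and the interaction was 0.83 ± 0.14 (edgeR adjusted p = 8.06e-05).

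**Figure D3:**
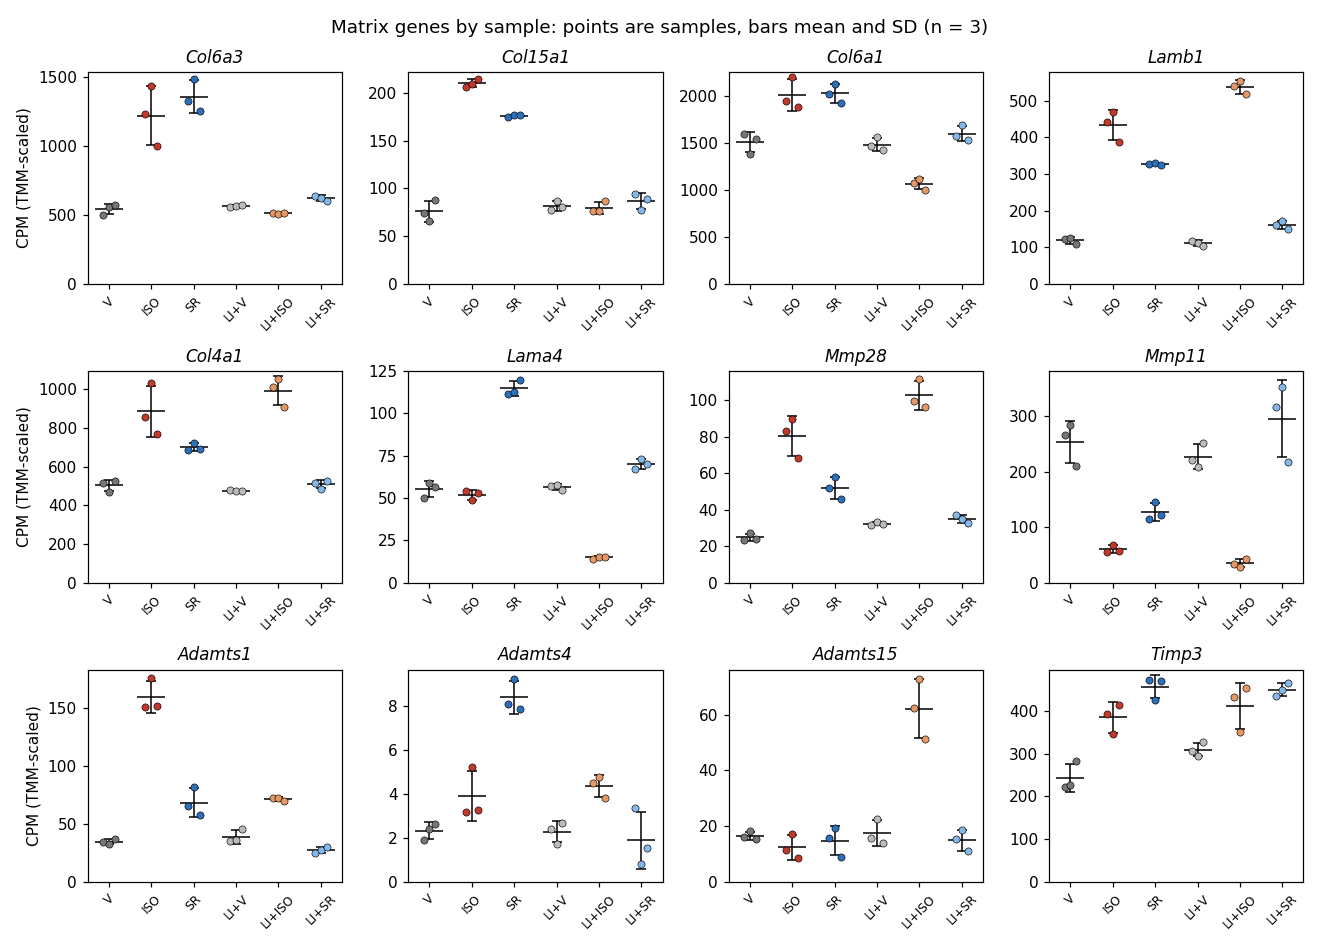
TMM-scaled CPM (vertical axis, from 0) of 12 matrix genes in each of the 18 samples, with the groups abbreviated V (Vehicle), ISO, SR (SR-3420) and LI+V, LI+ISO and LI+SR (the same after lipase inhibitors). Points are samples and bars the mean and SD of 3. Col6a3 and Col15a1 were high in ISO and SR only, Lamb1, Col4a1 and Mmp28 were high in ISO with or without inhibitors, Adamts15 was high in LI+ISO alone, and Mmp11 fell in both ISO groups.

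Laminins, the trimeric cross-shaped proteins of the basement membrane, split by chain. Of the 7 tested, ISO raised 1, against 26.8% of all genes. SR-3420 raised 4 and lowered none, against 26% and 25.4% of all genes. ISO after inhibitors raised 1 and lowered 4, against 29.4% and 28.3%. The weakest of the SR-3420 calls, Lamc1 (0.15 ± 0.06, edgeR adjusted p = 0.0494), was lost with total-count scaling (-0.014, 0.894) and without Vehicle replicate 1 (0.10, 0.21) or any 1 of the SR-3420 samples (adjusted p = 0.065 to 0.106). Lamb1, the β1 chain (chr12:31950159-32014504, plus strand), measured 122, 126 and 108 CPM in Vehicle, 441, 470.3 and 388 CPM in ISO, 327, 330.3 and 325 CPM in SR-3420, and 539, 554 and 517 CPM in Lipase Inh. + ISO. No stimulated group overlapped its control. ISO raised Lamb1 3.65-fold (1.87 ± 0.08, edgeR adjusted p = 2.51e-14), SR-3420 2.76-fold (1.47 ± 0.08) and ISO after inhibitors 4.85-fold (2.28 ± 0.08, edgeR adjusted p = 8.66e-16). SR-3420 after inhibitors still raised it, by 0.54 ± 0.08 (edgeR adjusted p = 0.000185), and by 0.49 (edgeR adjusted p = 0.00164) without Lipase Inh. + SR-3420 replicate 2. Its 2 interactions thus had opposite signs, 0.41 ± 0.11 for ISO and -0.93 ± 0.11 for SR-3420 (edgeR adjusted p = 0.00599 and 2.27e-06).

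Lama4, the α4 chain of the laminins around fat cells and vessels (chr10:38685321-38829994, plus strand), showed another order. It measured 49.8, 58.9 and 56.6 CPM in Vehicle, 54, 48.5 and 52.6 CPM in ISO, 111, 113 and 120.0 CPM in SR-3420, 57.2, 57.8 and 54.4 CPM in Lipase Inh. + Vehicle, and 14.1, 15.3 and 15.3 CPM in Lipase Inh. + ISO. SR-3420 raised it 2.08-fold (1.06 ± 0.07, edgeR adjusted p = 1.13e-10) and ISO did not move it past the threshold (-0.09, 95% interval -0.23 to 0.06), so that the 2 stimuli differed by -1.15 ± 0.07 (edgeR adjusted p = 1.29e-10). Under inhibitors ISO lowered it to 0.265 of the control level (-1.92 ± 0.08, edgeR adjusted p = 2.03e-14), with an interaction of -1.83 ± 0.11 (edgeR adjusted p = 5.08e-11). SR-3420 under inhibitors gave 0.30 ± 0.07 for Lama4 (edgeR adjusted p = 0.0192), a call lost without Lipase Inh. + SR-3420 replicate 2 (0.28, 0.071) or 3 (0.30, 0.0654), without Lipase Inh. + Vehicle replicate 1 (0.31, 0.0577) or 3 (0.28, 0.0822), with total-count scaling (0.20, 0.247) and with only the compared groups in the fit (0.29, 0.059). Lamc1, the shared γ1 chain, likewise fell by -0.98 ± 0.06 under inhibitors with ISO (edgeR adjusted p = 1.16e-11), and its interaction was -0.85 ± 0.09. Lama4, Lamb1 and Lamc1 can form 1 trimer, and in Lipase Inh. + ISO Lamb1 was higher while the other two were lower. Lama5 and Lamb2 also fell there, by -0.83 ± 0.21 and -0.37 ± 0.11.

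Metalloproteinases were few: 8 of the 23 passed the filter, and 5 of these were not called with ISO or with SR-3420. Over all genes 26.8% were called higher and 25% lower with ISO, and 26% and 25.4% with SR-3420. The gelatinase Mmp2 stayed at 2.29 to 4.77 CPM across all groups. Mmp11 (stromelysin 3, chr10:75385969-75395208, minus strand) was the highest of the metalloproteinases. It measured 267, 284 and 210.3 CPM in Vehicle, 55.8, 68.8 and 57 CPM in ISO, 114, 146 and 122 CPM in SR-3420, 222, 209 and 252 CPM in Lipase Inh. + Vehicle, and 33.9, 29.0 and 43.6 CPM in Lipase Inh. + ISO. Both ISO groups lay below every other group. ISO lowered it to 0.238 of Vehicle (-2.07 ± 0.16, edgeR adjusted p = 5.74e-10), SR-3420 to 0.501 (-1.0 ± 0.15) and ISO under inhibitors to 0.158 of its control (-2.66 ± 0.17, edgeR adjusted p = 1.11e-11). The SR-3420 effect was absent from the calls under inhibitors (0.37 ± 0.15, edgeR adjusted p = 0.217), and that interaction was 1.36 ± 0.21 (edgeR adjusted p = 6.45e-05). Mmp15, a membrane-type metalloproteinase, fell along with it, by -1.20 ± 0.21 with ISO, -0.99 ± 0.20 with SR-3420 and -1.68 ± 0.22 with ISO under inhibitors.

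Mmp28 (epilysin) went the other way. It measured 23.6, 27.3 and 23.9 CPM in Vehicle, 83.2, 89.7 and 68.2 CPM in ISO, 51.8, 58 and 46 CPM in SR-3420, and 99.8, 112 and 96.6 CPM in Lipase Inh. + ISO. The ISO rise was 1.69 ± 0.10 without and 1.66 ± 0.10 with inhibitors (edgeR adjusted p = 1.53e-11 and 6.97e-12), a difference of -0.03 with a 95% interval of -0.31 to 0.25. SR-3420 raised it by 1.05 ± 0.10, and by 0.10 ± 0.11 under inhibitors, an interaction of -0.95 ± 0.15 (edgeR adjusted p = 6.8e-05). Mmp14, the main membrane-type collagenase, gave 0.02 with ISO (95% interval -0.21 to 0.25) and 0.23 ± 0.11 with SR-3420, neither called, and its SR-3420 interaction was -0.62 ± 0.17 (edgeR adjusted p = 0.00877). Mmp19 gave 0.07 with ISO (95% interval -0.11 to 0.24) and was called in no comparison.

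Of the 19 ADAMTS genes 11 were tested. Adamts1, which cleaves the proteoglycans versican and aggrecan (chr16:85794073-85803360, minus strand), had the largest ISO effect among the members without inhibitors. It measured 34.5, 32.8 and 36.4 CPM in Vehicle, 151, 176 and 151 CPM in ISO, 65, 81.9 and 57.8 CPM in SR-3420, 35.0, 35.6 and 45.8 CPM in Lipase Inh. + Vehicle, 72.0, 72.1 and 69.3 CPM in Lipase Inh. + ISO, and 25.1, 27.4 and 30.2 CPM in Lipase Inh. + SR-3420. The ISO samples were above those of every other group. ISO raised it 4.61-fold (2.20 ± 0.12, edgeR adjusted p = 1.16e-12) and, after inhibitors, 1.83-fold (0.87 ± 0.12), so the rise was smaller by 1.33 ± 0.16 log2 units (edgeR adjusted p = 1.44e-06) but still called. SR-3420 raised it 1.97-fold (0.98 ± 0.12), less than ISO by 1.23 ± 0.11 (edgeR adjusted p = 3.19e-08). Its neighbour Adamts5, an aggrecanase on the same strand 55041 bases away, fell with ISO by -0.88 ± 0.19 (edgeR adjusted p = 0.000619) and by the same -0.88 ± 0.18 under inhibitors.

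Adamts9 and Adamts15 are further proteoglycan-cleaving members. Adamts9 measured 5.12, 6.41 and 5.38 CPM in Vehicle, 15.2, 13.5 and 16.1 CPM in ISO, 5.58, 5.41 and 5.92 CPM in SR-3420, and 33.0, 28.1 and 27.9 CPM in Lipase Inh. + ISO. The ISO rise was 1.40 ± 0.17, beside 0.01 with SR-3420 (95% interval -0.35 to 0.37), and the 2 stimuli differed by 1.40 ± 0.17 (edgeR adjusted p = 2.32e-06). Under inhibitors it was 2.17 ± 0.16, larger by 0.77 ± 0.24 (edgeR adjusted p = 0.0163), but not past the threshold without Vehicle replicate 2 (0.67, edgeR adjusted p = 0.055) or Lipase Inh. + Vehicle replicate 3 (0.67, 0.0528). Adamts15 measured 16.1, 18.2 and 15.3 CPM in Vehicle, 11.3, 17.1 and 8.51 CPM in ISO, 15.7, 22.7 and 13.7 CPM in Lipase Inh. + Vehicle, and 62.5, 72.9 and 51.3 CPM in Lipase Inh. + ISO. It was thus high where ISO met blocked lipases, by 3.61-fold (1.85 ± 0.23, edgeR adjusted p = 5.91e-07), and not with ISO alone (-0.41 ± 0.26), an interaction of 2.26 ± 0.35 (edgeR adjusted p = 2.91e-05).

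Adamts4, another aggrecanase, was called higher with SR-3420 alone and with ISO both without and with inhibitors. It measured 1.90, 2.4 and 2.65 CPM in Vehicle, 3.19, 5.21 and 3.26 CPM in ISO, 8.08, 9.24 and 7.86 CPM in SR-3420, and 3.33, 0.799 and 1.53 CPM in Lipase Inh. + SR-3420. The 0.799 CPM, in replicate 2, rests on 3 counts. The SR-3420 rise was 3.65-fold (1.87 ± 0.26, edgeR adjusted p = 3.65e-06), above that of ISO by 1.1 ± 0.24 log2 units (edgeR adjusted p = 0.00166), and smaller by 2.01 ± 0.41 under inhibitors (edgeR adjusted p = 0.000983). The ISO rise of 0.76 ± 0.28 (edgeR adjusted p = 0.0293) was lost with total-count scaling (0.46, edgeR adjusted p = 0.177) and without ISO replicate 2 (0.49, 0.201) or Vehicle replicate 1 (0.63, 0.119) or 2 (0.80, 0.0523). Under inhibitors ISO raised it by 0.90 ± 0.27 (edgeR adjusted p = 0.00745), from 1.73 to 2.66 CPM in Lipase Inh. + Vehicle to 3.80 to 4.76 CPM, ranges that did not overlap. Adamts7, which cleaves cartilage oligomeric matrix protein, fell by -1.16 ± 0.20 with ISO and -0.78 ± 0.19 with SR-3420, and Adamts12 by -0.80 ± 0.15 with ISO under inhibitors (interaction -0.69 ± 0.21, edgeR adjusted p = 0.0162).

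**Figure D4:**
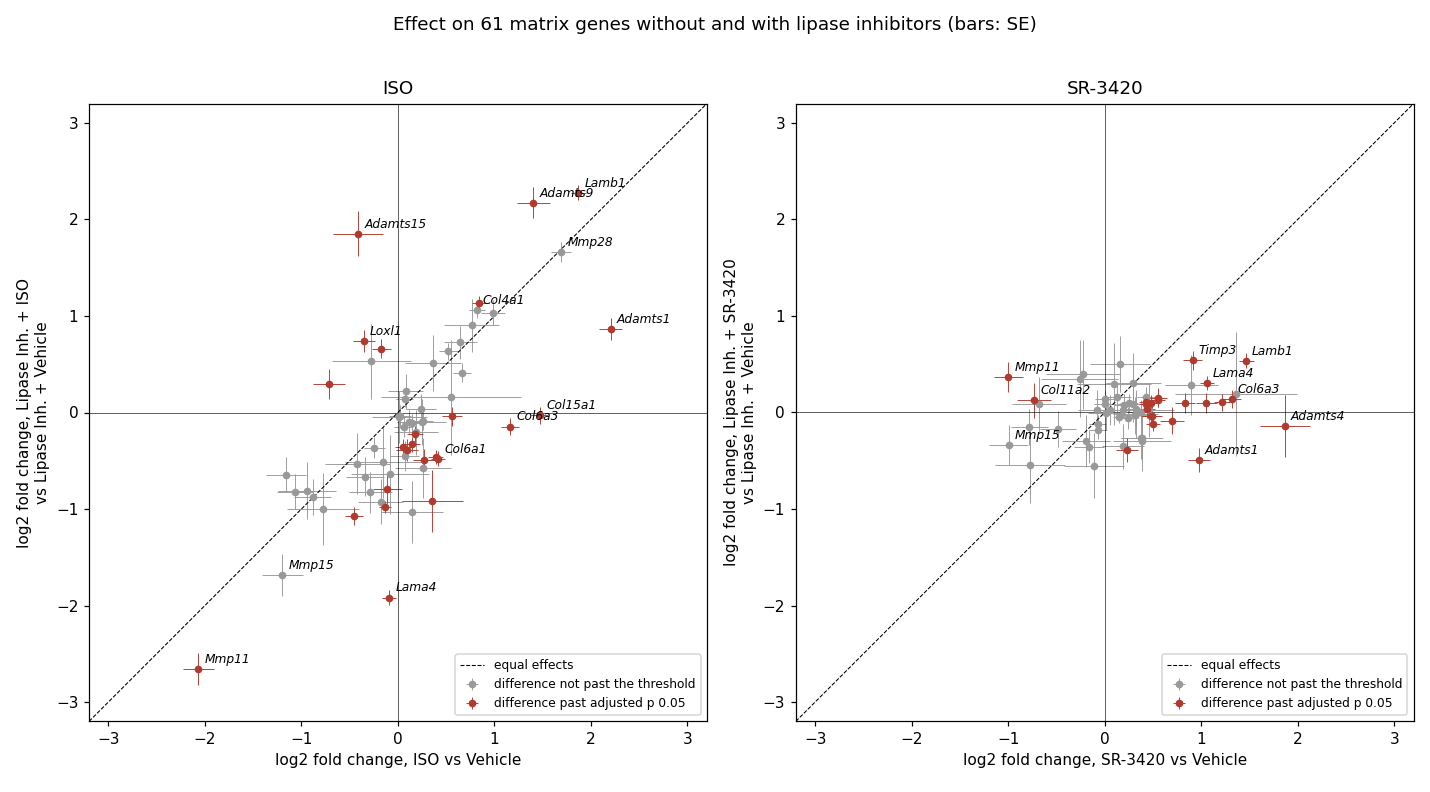
Log2 fold change of the 61 tested matrix genes with ISO (left) and SR-3420 (right), without inhibitors on the horizontal axis and with inhibitors on the vertical axis, bars giving the SE, red where the 2 effects differed at an adjusted p of at most 0.05 and the dashed line marking equal effects. On the left Mmp28 lies on the line (1.69 and 1.66), Lamb1 above it (1.87 and 2.28), Col15a1 and Col6a3 near zero on the vertical axis, and Adamts15 and Lama4 far off it, while on the right the vertical values lie between -0.55 and 0.54.

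The 4 TIMPs, which bind and block the active site of metalloproteinases, were led by Timp3, the form held in the matrix. It measured 221, 226 and 282 CPM in Vehicle, 394, 346 and 415 CPM in ISO, 473, 426 and 472 CPM in SR-3420, 306, 296 and 328 CPM in Lipase Inh. + Vehicle, 432, 352 and 453 CPM in Lipase Inh. + ISO, and 435, 451 and 465 CPM in Lipase Inh. + SR-3420. All stimulated samples were above their controls. The rise was 0.66 ± 0.10 with ISO and 0.91 ± 0.10 with SR-3420 (edgeR adjusted p = 5.52e-06 and 9.17e-08), and under inhibitors 0.41 ± 0.10 and 0.54 ± 0.10, so Timp3 was among the few genes that SR-3420 raised there (without Lipase Inh. + SR-3420 replicate 2, 0.54, edgeR adjusted p = 0.00608). With total-count scaling the ISO rise under inhibitors was 0.19 (edgeR adjusted p = 0.131). Timp1, a secreted form induced in wounds, rose with ISO by 0.65 ± 0.17 (edgeR adjusted p = 0.00271; 0.34, 0.0985, with total-count scaling) and under inhibitors by 0.73 ± 0.17, and Timp2, the partner of Mmp14 in activating Mmp2, rose with SR-3420 by 0.38 ± 0.12 (edgeR adjusted p = 0.0135; 0.22, 0.182, with total-count scaling; 0.30, 0.0743, without Vehicle replicate 2; 0.31, 0.0709, without SR-3420 replicate 3). Timp4, at 38, 30 and 20 counts in Vehicle, did not rise. It gave -0.78 with ISO and -0.77 with SR-3420, neither called, and fell by -0.998 with ISO under inhibitors. That call was lost without Lipase Inh. + Vehicle replicate 2 (-0.88, edgeR adjusted p = 0.0833) or Lipase Inh. + ISO replicate 2 (-0.67, 0.13). Timp1, Timp3 and Timp4 lie inside the spans of Syn1, Syn3 and Syn2 on the opposite strand, and use of strand in the counting was not given in the sources used here.

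Among the 5 lysyl oxidases, which cross-link collagen and elastin, Loxl2, the collagen IV cross-linker, measured 11.5, 12.1 and 13.8 CPM in Vehicle, 24.7, 26.9 and 22 CPM in ISO, 21.2, 20.2 and 18.9 CPM in SR-3420, and 23.6, 24.9 and 24.5 CPM in Lipase Inh. + ISO. ISO and SR-3420 samples were all above Vehicle. ISO raised it by 0.99 ± 0.13 without and 1.04 ± 0.12 with inhibitors (edgeR adjusted p = 9.51e-07 and 3.3e-07), a difference of 0.05 with a 95% interval of -0.30 to 0.40, and SR-3420 raised it by 0.70 ± 0.13. Lox rose with SR-3420 (0.49 ± 0.11, edgeR adjusted p = 0.000965), gave 0.10 ± 0.11 with ISO and fell with ISO under inhibitors (-0.39 ± 0.11, edgeR adjusted p = 0.00517). Loxl1, the elastin cross-linker, measured 55.7, 57.9 and 58.4 CPM in Lipase Inh. + Vehicle and 91.8, 111 and 84.4 CPM in Lipase Inh. + ISO, a rise of 0.74 ± 0.11 (edgeR adjusted p = 8.54e-06), beside -0.35 ± 0.12 with ISO alone (edgeR adjusted p = 0.0148, and -0.26, 0.0956, without Vehicle replicate 2 or -0.25, 0.104, without ISO replicate 2). The interaction was 1.09 ± 0.16 (edgeR adjusted p = 2.01e-05). Loxl4 rose by 0.48 ± 0.09 with SR-3420, and Loxl3 was called in no comparison.

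Comparing the stimuli directly, 7 members were higher with ISO than with SR-3420 (11.5%, against 15.8% of all genes) and 14 were lower (23.0%, against 13.9%), and with each sample of the 2 groups left out in turn the lower count ranged from 9 to 13. Total-count scaling moved the median of all genes by -0.15 here and gave 5 higher and 24 lower (17.2% of calls higher instead of 33.3%). Over all genes it gave 775 higher and 3035 lower. The 2 members past 2-fold higher were Adamts1 and Adamts9 (1.23% of all genes passed that mark), and the 3 past 2-fold lower were Lama4, Adamts4 and Mmp11 (0.814% of all genes). For collagen VI the 2 stimuli were close: Col6a3 differed by -0.15 (95% interval -0.33 to 0.03) and Col6a2 by -0.16 (-0.31 to -0.02), with no call at the adjusted threshold.

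Promoter windows of 250 bases before to 50 after the start site were taken from RefSeq (GRCm38.p6) for 73 of the 106 members, 41 of them tested. The motifs searched, on both strands, were TGACG (the core of the cAMP response element that CREB binds), TGANTCA (the AP-1 site), GGAATG (the TEAD site), AGGTCA (the core of nuclear receptor sites) and CACGTG (the E-box). TGACG occurred in 22.2% of the 45 windows of tested members and 20.8% of all 32851 windows. The shares were 2.22% against 7.81% for TGANTCA, 15.6% against 14.7% for GGAATG, 6.67% against 16.3% for AGGTCA and 0% against 7.15% for CACGTG. The 250 bases before the start sites of 5 genes that stand for the main patterns are printed here 5′ to 3′ on the gene's strand in lower case, with any match of the motifs in capitals. Each was found once on its mm9 chromosome, at chr16:85803359-85803608 (minus) for Adamts1, chr12:31949908-31950157 (plus) for Lamb1, chr4:47220634-47220883 (plus) for Col15a1, chr1:92740549-92740798 (minus) for Col6a3 and chr10:75395248-75395497 (minus) for Mmp11. The start sites used here are those of the RefSeq windows and not always the ends of the gene spans given above. The window site lies 39 bases upstream of the span's start for Mmp11, 1 upstream for Lamb1 and 2 downstream for Adamts1. The 1 match is the TGACG of Adamts1, which begins 170 bases before the window's start site.
Adamts1: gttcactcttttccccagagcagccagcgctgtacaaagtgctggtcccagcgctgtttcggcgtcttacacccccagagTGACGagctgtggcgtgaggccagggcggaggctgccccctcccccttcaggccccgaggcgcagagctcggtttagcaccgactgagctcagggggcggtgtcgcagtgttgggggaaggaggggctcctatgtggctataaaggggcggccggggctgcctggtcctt
Lamb1: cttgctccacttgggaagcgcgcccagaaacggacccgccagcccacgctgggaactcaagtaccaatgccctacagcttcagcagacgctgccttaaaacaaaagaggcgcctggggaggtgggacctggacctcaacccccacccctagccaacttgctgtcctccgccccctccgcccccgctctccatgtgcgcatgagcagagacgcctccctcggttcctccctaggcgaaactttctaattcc
Col15a1: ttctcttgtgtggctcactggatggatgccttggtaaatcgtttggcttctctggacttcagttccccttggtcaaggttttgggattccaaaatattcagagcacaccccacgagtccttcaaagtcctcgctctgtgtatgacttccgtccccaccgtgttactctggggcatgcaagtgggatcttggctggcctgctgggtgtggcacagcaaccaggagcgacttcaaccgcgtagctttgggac
Col6a3: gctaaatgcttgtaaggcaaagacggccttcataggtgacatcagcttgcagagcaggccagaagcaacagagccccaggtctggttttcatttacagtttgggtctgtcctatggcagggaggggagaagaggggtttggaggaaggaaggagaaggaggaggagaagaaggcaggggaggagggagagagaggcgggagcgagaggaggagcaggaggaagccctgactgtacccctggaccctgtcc
Mmp11: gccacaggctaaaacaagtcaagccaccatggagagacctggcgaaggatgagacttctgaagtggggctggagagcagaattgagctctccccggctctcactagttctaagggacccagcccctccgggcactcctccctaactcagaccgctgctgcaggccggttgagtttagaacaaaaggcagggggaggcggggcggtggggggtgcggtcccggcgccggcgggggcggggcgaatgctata

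The match overlaps no other motif. Among the 10 tested members with TGACG were also Adamts9 (ISO 1.40) and Timp1 (0.65), which rose with ISO, and Col11a2 (-1.07), which fell. Loxl4 (0.26) passed the threshold in edgeR, but not with total-count scaling (-0.043), without the filter, with only the compared groups in the fit, or without Vehicle replicate 2 or 3 or ISO replicate 1 or 2 (adjusted p = 0.0551 to 0.766 over these fits). The other 5, Adamts12, Col4a5, Col7a1, Lama5 and Lamb2, were not called with ISO. Over all genes 26.8% were called higher and 25% lower with ISO. The other 4 printed stretches hold none of the 5 motifs.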

How the data were processed

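The authors aligned reads to mm9 with STAR 2.4.2a, summarised tags with HOMER (1 read per position and length) and used iRNA-seq to count reads per RefSeq gene. What they deposited is a table of raw counts for 20295 genes in 18 samples, 3 per group by their titles. For the tests, edgeR 4.0.16 (R 4.3.3) was run with filterByExpr (minimum count 10, total 15), TMM factors, a quasi-likelihood fit of the 6 group means on all 18 samples and Benjamini-Hochberg adjustment over 12156 genes. An interaction is the effect with inhibitors minus that without. Intervals of 95% come from the estimate and its SE. Table starts count from 0 and are printed counting from 1. Scripts were tested on simulated data. Members and lists were chosen with earlier results of these data known. Named were a fixed list of members plus, per contrast, up to 4 called genes with the highest and 4 with the lowest fold change. Other members (Col5a1, Col5a2, Col5a3, Col8a1, Col12a1, Col20a1, Col23a1, Col4a3, Col4a5, Col4a6, Lama5, Lamb2, Mmp19 and Adamts12 among them) were named after their values were seen. Some genes are counted but not reported here by name. Alternatives were RLE factors, total counts alone, other filters, a replicate block, only the groups compared, DESeq2 1.42.0 and each sample left out. P-values measure the spread between cultures of 1 line.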

Additional observations from a re-analysis of the deposited data

Results flagged for a closer look

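For 5 results the call was in opposite directions without and with lipase inhibitors, and the test of the difference itself passed an edgeR adjusted p of 0.05. How many of all 12156 genes met the same rule was not counted, so how common such results are elsewhere is not known. Groups of 3 samples were not searched for single outlying samples. With ISO the difference between the effects with and without inhibitors was -0.89 for Col6a1, -0.85 for Col6a2 and -0.76 for Col5a3, which were higher with ISO alone and lower with ISO after inhibitors. It was 1.09 for Loxl1, which was lower with ISO alone and higher after inhibitors. With SR-3420 it was -1.47 for Adamts1, which was higher with SR-3420 alone and lower after inhibitors. The fall of Adamts1 under inhibitors (-0.49, edgeR adjusted p = 0.0257) was not past the threshold without Lipase Inh. + SR-3420 replicate 2 (-0.49, 0.0643) or 1 (-0.41, 0.123), or without Lipase Inh. + Vehicle replicate 3 (-0.35, 0.159).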

How the results depend on the processing

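With library totals alone as the scale, ISO gave 10 members higher and 20 lower, Lipase Inh. + SR-3420 gave 2 lower, the SR-3420 interaction 13 lower and ISO against SR-3420 24 lower. Over all genes ISO then gave 1496 higher and 6004 lower. Lipase Inh. + SR-3420 gave 230 lower, the SR-3420 interaction 1242 lower and ISO against SR-3420 3035 lower. The same scale turned the sign of Loxl4 with ISO (-0.043) and of Lamc1 with SR-3420 (-0.014). For lipase inhibitors alone, without a filter on low counts 1 member was higher, and 3 were by DESeq2. Over all genes these fits gave 77 and 117 higher. Same-numbered samples did not deviate together for every number, and 14 of 18 samples correlated best with their own number. A fit with the replicate block gave 3 members higher for inhibitors alone and 2 lower for Lipase Inh. + SR-3420, with 19 higher and 13 lower for ISO and 27 and 5 for SR-3420, and it lost no named call. Over all genes the block fit gave 147 higher for inhibitors alone and 275 lower for Lipase Inh. + SR-3420. For ISO it gave 3506 higher and 3347 lower, and for SR-3420 3394 and 3356. With each replicate left out in turn, members past 2-fold with SR-3420 numbered 7 to 10, those higher with inhibitors alone 0 to 1, those lower in Lipase Inh. + SR-3420 0 to 2 and those lower with ISO than with SR-3420 9 to 13. Of 134 named gene calls, 100 held under every alternative. The lowest library total, 4263755 counts in Lipase Inh. + SR-3420 replicate 2, bounds the precision there. Leaving it out, or leaving out Lipase Inh. + Vehicle replicate 3, left 2 of the 4 calls of that comparison.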

Other observations

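Other matrix genes were followed in lists that hold no member of the families above. Over all 12156 genes, 26.8% were higher and 25% lower with ISO, and 26% higher and 25.4% lower with SR-3420, and each list is given beside these shares with no test. Of 27 tested matrix glycoproteins, 12 were higher and 2 lower with ISO (44.4% and 7.41%), and 10 were higher and 1 lower with SR-3420 (37.0% and 3.70%). Thbs1, thrombospondin 1, which can activate latent TGF-beta, rose by 1.12 with ISO (edgeR adjusted p = 7.73e-09) and by 2.19 with SR-3420 (edgeR adjusted p = 4.57e-13), and changed by -1.1 with ISO after inhibitors (edgeR adjusted p = 7.39e-09). Vcan, the proteoglycan versican, was higher by 0.79 with ISO alone and by 1.90 with ISO after inhibitors. Of 11 tested proteoglycans, 2 were higher and 1 lower with ISO (18.2% and 9.09%), and 5 were higher and 1 lower with SR-3420 (45.5% and 9.09%).

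Of 19 tested genes of collagen biosynthesis, 4 were higher and 4 lower with ISO (21.1% each) and 5 higher and 4 lower with SR-3420 (26.3% and 21.1%). Plod2, which hydroxylates collagen lysines for cross-linking, was lower by -0.96 with ISO, -1.11 with SR-3420 and -1.44 with ISO after inhibitors. Of 20 tested plasminogen system genes and other proteases, 5 were higher and 2 lower with ISO (25.0% and 10.0%) and 6 higher and 5 lower with SR-3420 (30.0% and 25.0%).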
